A study of Mus musculus with 41 samples.

Results

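The cytosolic ribosomal proteins form the protein part of the ribosomes that translate nuclear-encoded messages. Genes were taken as members when a probe set of the array carried a single gene symbol that begins with Rpl or Rps, may have a p, continues with a number and may end in a, x or l. Each gene was read at 1 probe set, the one brightest by its mean over the arrays. This gave 45 genes of the 18193 genes with a single symbol on the array, 24 of the large and 21 of the small subunit. The brighter part of all probe sets was tested, and 42 members, 22 large and 20 small, were among them. The probe sets of Rpl39l, Rpl3l and Rps16 were too dim. The members do not make up the whole ribosome: 110 further probe sets carry several symbols of which at least 1 fits the rule, as for Rplp1, Rpl3, Rpl5, Rpl10 and Rpl24, and they were not counted.

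Hippocampal RNA of 41 male C57BL/6J mice, an inbred strain, was measured with 1 array per mouse. The labels name no engineered allele and no drug, and all mice went through the same battery from an age of 10 weeks. It held 5 cognitive tests scored by 11 parameters, the last at 37 to 38 weeks, and RNA was taken 1 month after it. Under 2 ranking systems, 8 mice were low, 12 medium and 5 high in both, 14 were ranked inconsistently and 2 had incomplete behaviour. Each mouse was measured once, from tissue that holds neurons, glia and vessels together, so fewer cells of a type and less RNA per cell cannot be told apart. The number of arrays limited the precision.

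Each ribosome joins a small subunit, which reads the message, to a large subunit, which makes the peptide bond. The messages of most ribosomal proteins begin with a cytosine and a run of pyrimidines, a feature known as the TOP motif, through which mTOR signalling sets their translation. In neurons, ribosomes also lie in dendrites, and new protein synthesis is needed for lasting memory.

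Promoters are shown for 4 members with an unadjusted limma p under 0.05 in a class comparison, Rpl35, Rps18, Rpl37 and Rpl19. Rps25, Rps26 and Rps9 also had such a p and are not shown. Promoters of Rps6 and Rpl38 are shown too, so that starts with and without a pyrimidine run can be compared. The sequences are from RefSeq on GRCm38.p6 and run from 100 bases before the annotated start to 30 bases from it. Of the 45 members, 39 were found in the promoter table, with 47 promoters in all. Capitals mark the longest run of 7 or more pyrimidines that opens with C within 20 bases of the start, and each CCGGAAG on either strand, the core that Ets family factors recognise.
Rpl35, chr2:39005102-39005231, minus strand: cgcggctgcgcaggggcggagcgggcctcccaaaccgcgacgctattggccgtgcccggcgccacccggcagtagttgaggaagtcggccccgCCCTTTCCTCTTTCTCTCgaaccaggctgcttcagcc
Rps18, chr17:33955636-33955765, minus strand: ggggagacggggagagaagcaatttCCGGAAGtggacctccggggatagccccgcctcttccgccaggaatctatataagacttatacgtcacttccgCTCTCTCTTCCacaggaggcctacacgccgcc
Rps6, chr4:86857338-86857467, minus strand: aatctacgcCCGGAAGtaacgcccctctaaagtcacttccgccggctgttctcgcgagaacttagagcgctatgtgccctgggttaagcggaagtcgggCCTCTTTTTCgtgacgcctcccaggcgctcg
Rpl38, chr11:114668480-114668609, plus strand: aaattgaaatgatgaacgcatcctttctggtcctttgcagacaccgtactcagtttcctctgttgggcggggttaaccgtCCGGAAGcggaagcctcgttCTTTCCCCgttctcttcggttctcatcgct
Rpl37, chr15:5116513-5116642, plus strand: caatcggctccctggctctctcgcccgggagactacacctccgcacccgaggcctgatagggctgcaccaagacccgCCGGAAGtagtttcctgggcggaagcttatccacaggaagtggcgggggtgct
Rpl19, upstream start, chr11:98026610-98026739, plus strand: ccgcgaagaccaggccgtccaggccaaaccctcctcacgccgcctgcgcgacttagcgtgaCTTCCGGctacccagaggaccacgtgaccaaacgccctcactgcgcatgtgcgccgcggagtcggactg
Rpl19, downstream start, chr11:98026824-98026953, plus strand: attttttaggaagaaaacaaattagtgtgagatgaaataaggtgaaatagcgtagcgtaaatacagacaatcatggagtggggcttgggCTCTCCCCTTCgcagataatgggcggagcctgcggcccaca
In Rpl35 a run of 18 pyrimidines began 7 bases before the annotated start, and in Rpl38 a run of 8 began at the start itself. Runs of 11 in Rps18 and 10 in Rps6 also covered the start. No such run was found for Rpl37 or at the upstream start of Rpl19, and the downstream Rpl19 start had a run of 11 that ended before it.

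Such a run was present in 24 of the 47 member promoters, 51.1%, against 20.3% of all 32851 promoters of the same length. A C at the annotated start followed by at least 4 pyrimidines was found in 8 member promoters, 17%, against 2.51% of all. CCGGAAG occurred in 40.4% of member promoters and 8.86% of all, over the whole window of 250 bases before to 50 after the start and on both strands. The motif AAGATGGC occurred in 6.38% against 2.75%, the GC box GGGCGG in 48.9% against 35.7% and TATAAA in 10.6% against 13.6%. All were searched on both strands except the pyrimidine runs. The matches are of letters at annotated starts and mark no binding site.

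Before the class comparisons, the arrays that stood apart were looked at. Pairwise correlations between arrays had a median of 0.986 and a lowest value of 0.949. On medium replicate 9 the mean of 3 dentate granule cell markers was 5.32, against at least 7.76 on every other array, and the mean of 5 striatum markers was 8.97, against at most 7.70 elsewhere. That array went against its hippocampal label in these markers, while its neuron markers were the highest of all at 11.8. Spike-in controls, RNAs of known sequence added to each sample, separated the arrays into groups of 7, 10 and 24, called spike-in groups 1, 2 and 3 here. No label names them as a batch. The high arrays lay 1 in group 2 and 4 in group 3.

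Levels below are log2(intensity + 16) after quantile normalization. Of the 42 tested members, 32 had a mean level of 11 or more, 17 large and 15 small, and the other 10 stood at 9.07 or less. A level belongs to a probe set, and levels of different probe sets do not order the genes by their amount of RNA. After this normalization the 32 bright members varied little between mice: the median of their SDs over the 41 arrays was 0.0682, against 0.0877 for 843 other probe sets at 11 or more and 0.165 for all tested probe sets. With no normalization between arrays the subunit means spread more, as given below. Rps28, a small protein at the exit of the message channel, had the lowest SD of the members, 0.0325, with levels from 12.6 to 12.7 over all mice. Rplp2, a stalk protein that helps recruit elongation factors, had an SD of 0.0462, Rps2 0.0443 and Rps7 0.0487. Rpl4, whose loop lines the peptide exit tunnel, had an SD of 0.0491.

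The 10 dim tested members had a median SD of 0.183. Rps27, a zinc-binding protein of the small subunit, stood at 6.79 on average with an SD of 0.518, and its arrays ran from 6.04 in an inconsistent to 7.79 in a low mouse. Rpl27a had an SD of 0.314, Rpl39, which lines the exit tunnel, 0.279, Rpl37 0.268 and Rps4l 0.199. Rps6, the target of S6 kinase below mTOR, had an SD of 0.118 at a level of 8.24. The untested Rpl39l, a paralog known from testis, stood at 4.71, Rpl3l, a paralog known from striated muscle, at 4.48 and Rps16 at 4.06. With an offset of 16 these levels are close to the floor of 4, so they describe the probe sets' signal and give no level of the genes.

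**Figure D1:**
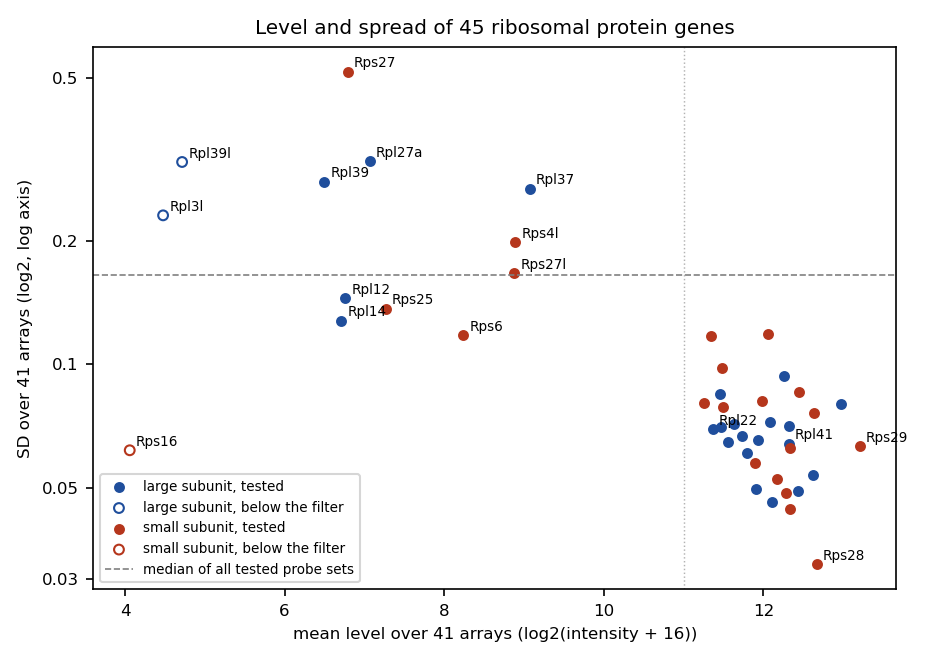
Each of the 45 ribosomal protein genes is a point, with its mean level over 41 arrays on the x axis (log2(intensity + 16)) and its SD over the same arrays on the y axis (log2, drawn on a log scale); the dashed line is the median SD of all tested probe sets, 0.165, and the dotted line the level of 11. The 32 members to the right of the dotted line all lie below the dashed line, and Rps27 is the highest point at 0.518.

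Other bright members held similarly close levels. Rpl11, known for holding Mdm2 when ribosome assembly fails, had an SD of 0.0703, Rpl6 0.0653, Rpl7 0.0497, Rpl8 0.0717 and Rpl27 0.0646. Rpl41, the smallest of these proteins, had an SD of 0.0641 and was highest in low replicate 5 at 12.5. In the small subunit, Rps3, which also has a part in DNA repair, had an SD of 0.0574, Rps24 0.0625, Rps20 0.0812, Rps10 0.0856 and Rps29 0.0633. Rps15 at 0.119 and Rps18 at 0.117 were the most variable of the bright members. Among the dim ones, Rps27l, a paralog of Rps27 that p53 induces, had an SD of 0.167 at a level of 8.88, Rpl12 0.145 at 6.76 and Rpl14 0.128 at 6.71.

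The spike-in groups took a median of 15.9% of a member's variance over arrays, against 7.97% for all tested probe sets, with the largest share, 52.5%, in Rpl38. The learning class took 8.46% over the ranked arrays, against 7.57% for all. Rpl38, which has been tied to the translation of Hox messages, ran from 12.8 to 13.2, and its highest array was medium replicate 9.

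High and low mice are the ends of the cognitive ranking, and the first question was whether their ribosomal protein messages differ. The mean level over the 22 large subunit members was 10.92 ± 0.02 (SD, n = 5) in the high class, 10.90 ± 0.05 (SD, n = 12) in the medium class and 10.91 ± 0.05 (SD, n = 8) in the low class. For the 20 small subunit members the means were 11.10 ± 0.04, 11.07 ± 0.04 and 11.09 ± 0.05 in the same order. Each gene counted alike, so the dim Rps27, with an SD of 0.518, could move them more than a bright member. Low replicates 8 and 2 had the highest and lowest small subunit means of their class, 11.16 and 11.02. They also had its highest and lowest Rps27, 7.79 and 6.08. In the medium class the highest small subunit mean (11.15, replicate 10) and the highest Rps27 (7.65, replicate 2) were on different arrays. The part of Rps27 was not tested. Large subunit means ran from 10.90 to 10.95 in high, from 10.83 to 11.01 in medium and from 10.83 to 10.97 in low mice, so the high arrays lay within both other classes. The 14 inconsistent mice averaged 10.92 ± 0.05 and 11.09 ± 0.05, inside the same ranges. By spike-in group 1 to 3 the large subunit mean was 10.87, 10.89 and 10.93, and the small subunit mean 11.08, 11.05 and 11.10.

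**Figure D2:**
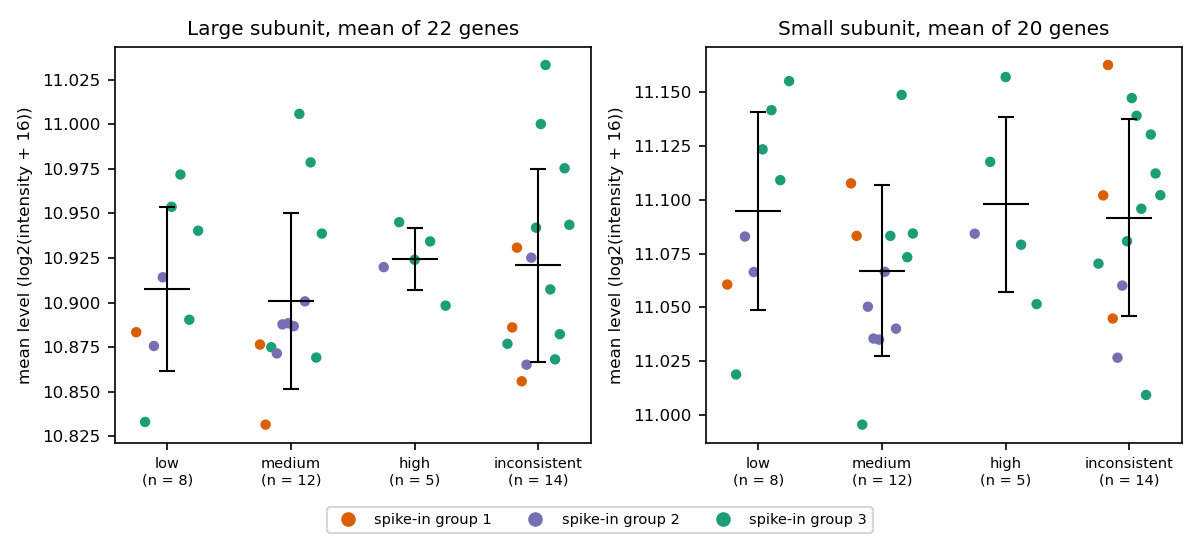
Points are arrays, with the mean level of the 22 large (left) and 20 small (right) subunit members on the y axis (log2(intensity + 16)), by learning class and coloured by spike-in group; black lines are the class mean and 1 SD. The classes overlap in both panels, and the 5 high mice lie between 10.90 and 10.95 in the left one.

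None of the 42 members passed the limma adjusted threshold of 0.05 for high against low, where 0.00888% of the 22519 probe sets did (2 probe sets). The smallest adjusted p of a member was 0.581. At an unadjusted p under 0.05 there were 2 members, 4.76%, against 8.17% of all probe sets, and 0 members without high replicate 2, 3 or 4, 1 without low replicate 4 or 7 and 4 without high replicate 5. Of the 42 differences, 29 were above 0, 17 large and 12 small, against 52% of all probe sets, with medians of 0.030 for the large and 0.0085 for the small subunit and 0.005 for all. The 29 became 39 when arrays were scaled to a common median instead of a common distribution, where the median of all probe sets was 0.070, and 18 with no normalization, where it was -0.061.

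The estimates of the bright members had narrow intervals after quantile normalization. The 95% interval lay within 0.2 of 0, a fold of 1.15, for 31 of 42 members, against 22.3% of all probe sets. These were 29 of the 32 bright and 2 of the 10 dim members. The share among other bright probe sets was not computed. Among the 32 bright members the estimates ran from -0.067 to 0.10, and the median distance from an estimate to the end of its interval was 0.0992, against 0.190 for all probe sets. No member's arrays separated the classes without overlap, as 0.502% of all probe sets did. Members near 0 included Rps6 at -0.0034 ± 0.072 (SE), Rpl10a, the protein often tagged to purify ribosomes, at 0.010 ± 0.047, and Rplp2 at 0.0097 ± 0.043.

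Rpl19, a large subunit protein that bridges the subunits, had the smallest p. Its 5 high arrays stood at 12.02, 12.24, 12.16, 12.22 and 12.10, and the low arrays had a lowest level of 11.93, a median of 12.04 and a highest of 12.15. High replicate 1, the only high array of spike-in group 2, was the lowest of its class and lay within the low range, while 3 high arrays lay above it. The difference was 0.10 ± 0.046 (SE), a fold of 1.07, with a limma unadjusted p of 0.0346 and an adjusted p of 0.581. It was 0.24 with arrays scaled to a common median, with a limma adjusted p of 0.141, and 0.095 with no normalization. With the spike-in group as a block it was 0.095, in group 3 alone 0.14, and in group 2, with 1 high array, -0.031. Rpl19 was also the 1 member of 42, 2.38%, with an unadjusted p under 0.05 for a trend over the ordered classes (slope 0.049, limma adjusted p = 0.833), against 5.92% of all probe sets.

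Rpl37, a zinc-binding protein of the large subunit, ran the other way. Its high arrays stood at 9.12, 8.43, 8.60, 8.82 and 9.03, the low arrays from 8.72 over a median of 9.14 to 9.78, and the medium arrays from 8.74 over 9.12 to 9.58. High replicates 2 and 3 lay below every low and medium array, and the other 3 high arrays lay within both classes. The difference from low mice was -0.34 ± 0.15 (SE), with an unadjusted p of 0.0358 and a limma adjusted p of 0.581. It was -0.36 with the spike-in group as a block, -0.52 within group 3 and 0.036 within group 2. Rpl37 has a single probe set here, of a kind whose probes can match other transcripts. No pyrimidine run of the kind marked above began within 20 bases of its annotated start. The upstream start of Rpl19, which differed the other way, had none either. A link between such runs and the class differences was not tested.

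Further members of the large subunit with the smallest p for high against low were Rpl7a at 0.094 ± 0.046 (SE), Rpl37a at 0.091 ± 0.054 and Rplp0, the base of the stalk, at 0.091 ± 0.061. In the small subunit they were Rps19, a gene mutated in Diamond-Blackfan anaemia, at 0.099 ± 0.059, Rps26 at -0.067 ± 0.054, Rps25 at 0.071 ± 0.074, Rps9 at -0.042 ± 0.054 and Rps28 at 0.025 ± 0.037. None of these reached an unadjusted p of 0.05, and adjusted limma p ran from 0.616 to 0.897. The scaling turned the sign of 3 of them. With arrays scaled to a common median, where all probe sets had a median of 0.070, Rps26 stood at 0.065 and Rps9 at 0.095. With no normalization, where all probe sets had a median of -0.061, Rps25 stood at -0.017. Scaling to a common median put Rpl7a, Rpl37a, Rplp0 and Rps19 at 0.22 to 0.24 and Rps28 at 0.15, while Rps28 was 0.0044 with no normalization. Single low arrays also moved the small subunit values. Without low replicate 5, Rps26 was -0.033 and Rps9 -0.021, and without low replicate 7, Rps25 was 0.039 and Rps28 0.016.

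**Figure D3:**
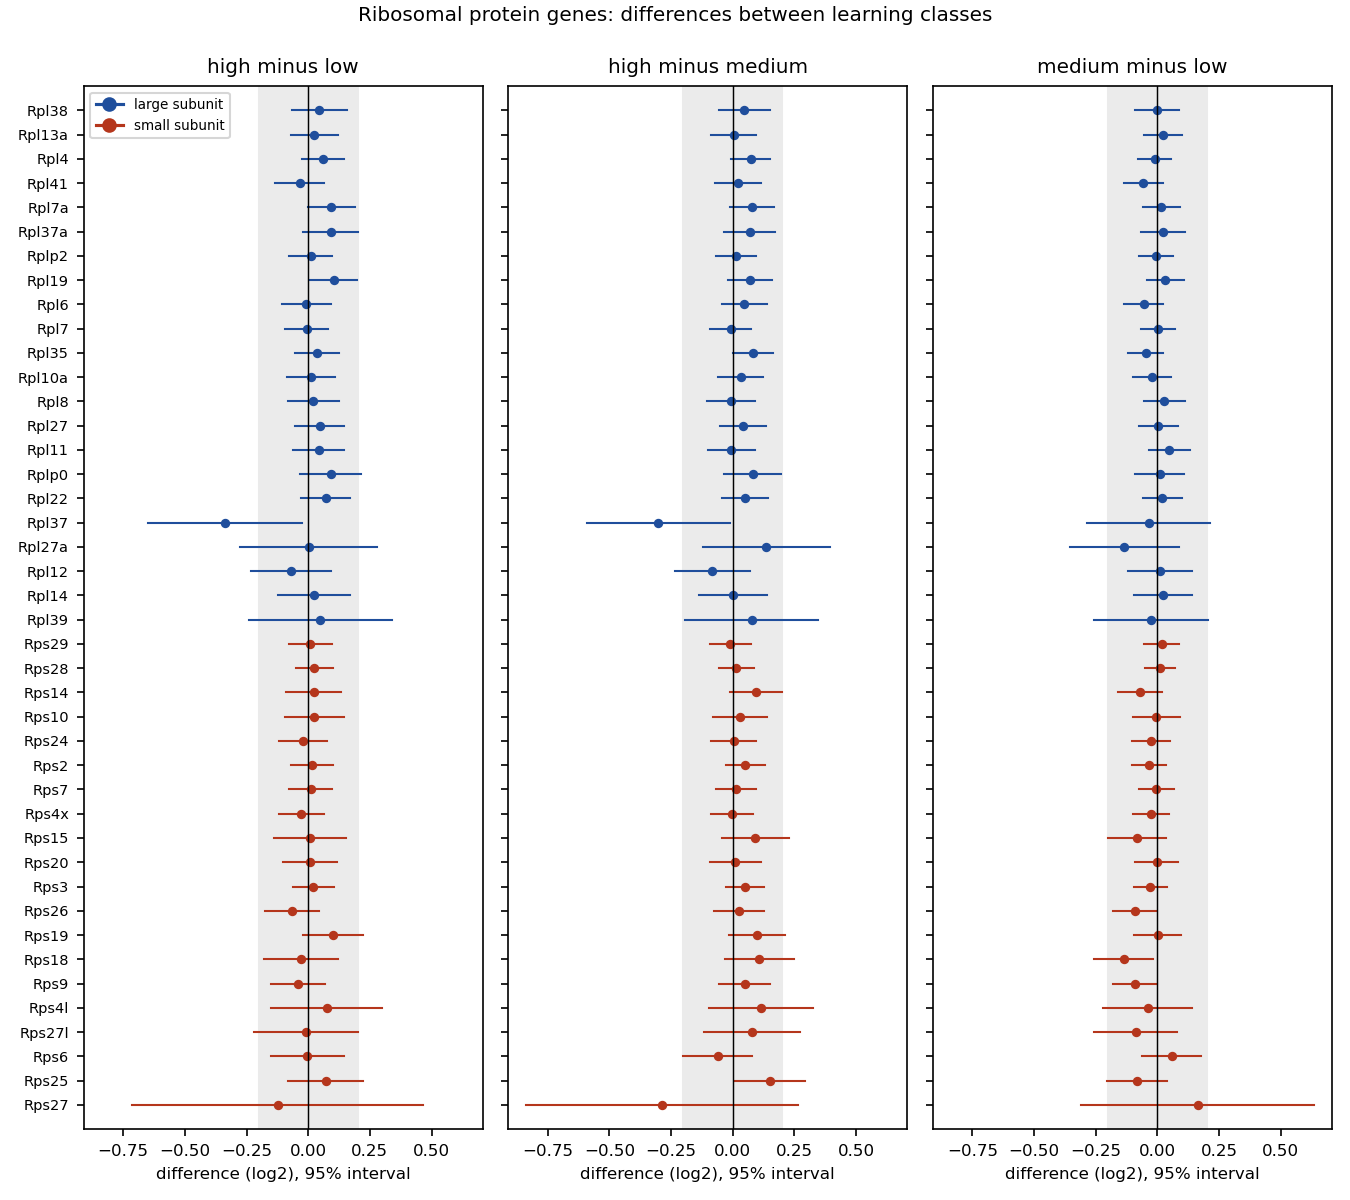
For each tested member the point is the log2 difference between classes and the line its 95% interval from limma, in 3 panels for high minus low, high minus medium and medium minus low; large subunit members are blue, small red, sorted by level within each subunit, and the grey band marks 0.2 either way. Most intervals cross 0 and lie in the band, while the dim members Rpl37, Rpl39, Rpl27a and Rps27 have the widest lines.

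Between high and medium mice no member passed the threshold either. The limma adjusted p was under 0.05 for 0.0311% of all probe sets (7), and the smallest of a member was 0.346. The difference was above 0 for 32 of 42 members, 16 in each subunit, against 51.8% of all probe sets, with medians of 0.044 for the large and 0.038 for the small subunit against 0.005 for all. The direction depended on the scaling. With arrays scaled to a common median, 39 members were above 0, with a member median of 0.18 against 0.065 for all probe sets; with no normalization all 42 were below 0, with -0.074 against -0.17 for all. Relative to the median of all probe sets the member median was thus 0.039, 0.12 and 0.095 higher in the 3 scalings. Under the common median 940 probe sets, 4.17%, passed, 895 of them higher in high mice, against 4 of 7 higher after quantile normalization, and 2 members, 4.76%, were among them, Rpl35 and Rpl7a.

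At an unadjusted p under 0.05 there were 3 members, 7.14%, against 13.2% of all probe sets, and 0 members without medium replicate 6 or high replicate 2 or 4. There was 1 without medium replicate 5, 7, 8, 9 or 11 or high replicate 3, and there were 5 without high replicate 1. The 95% interval lay within 0.2 of 0 for 30 members, 29 bright and 1 dim, against 24.2% of all. No member separated the classes, against 0.395% of all. Rpl35, a protein at the tunnel exit, had levels of 11.73, 11.90, 11.89, 11.91 and 11.76 in the high mice, and its medium arrays ran from 11.71 over a median of 11.74 to 11.85. In 3 high mice it lay above every medium array, and in high replicates 1 and 5 within their range. The difference was 0.083 ± 0.040 (SE), with a limma unadjusted p of 0.048 and an adjusted p of 0.374. It was 0.25 with arrays scaled to a common median, where the limma adjusted p was 0.041. With no normalization it was -0.015, against a median of -0.17 for all probe sets. With the spike-in group as a block it was 0.074, within group 3 alone 0.11 and within group 2 -0.0094. The 4 other tested probe sets of Rpl35 differed by 0.029 to 0.10.

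Rps25, a small subunit protein needed for initiation at some viral messages, stood at 7.30, 7.43, 7.39, 7.33 and 7.27 in high mice and from 6.96 over a median of 7.19 to 7.45 in medium mice. All 5 high arrays lay above the medium median and none above its highest array. The difference was 0.15 ± 0.069 (SE), with an unadjusted p of 0.0375 and a limma adjusted p of 0.346. With no normalization it was -0.043, against a median of -0.17 for all probe sets. It was 0.13 within spike-in group 2 and 0.15 within group 3. Rpl37 differed by -0.30 ± 0.14, with an adjusted p of 0.362. Rps14, at 0.094 ± 0.051, Rps19, at 0.099 ± 0.055, Rps18, at 0.11 ± 0.068, Rps15, at 0.091 ± 0.066, and Rpl4, at 0.072 ± 0.039, did not reach an unadjusted p of 0.05.

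Between medium and low mice no probe set and no member passed the limma threshold (0%), and the smallest adjusted p of a member was 0.998. At an unadjusted p under 0.05 there were 3 members, 7.14%, against 3.11% of all probe sets, and all 3 were of the small subunit. The 3 became 1 without low replicate 5, 6 or 7 or medium replicate 2, 3, 6 or 9. The difference was above 0 for 17 of 42 members, 12 large and 5 small, against 49.9% of all. It was above 0 for 8 with arrays scaled to a common median and for 40 with no normalization, which moved the median of all probe sets to 0.11. Medians were 0.0034 for the large and -0.028 for the small subunit. The interval lay within 0.2 of 0 for 34 members, 81%, against 47.3% of all, and 31 of them were bright and 3 dim. Again no arrays separated the classes (0% of all probe sets).

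Rps18, in the head of the small subunit, stood from 11.00 over a median of 11.28 to 11.45 in medium and from 11.29 over 11.42 to 11.51 in low mice, and its high arrays were at 11.45, 11.56, 11.18, 11.51 and 11.23. The low and medium classes overlapped, and the high arrays covered most of both ranges. Medium minus low was -0.14 ± 0.058 (SE), with an unadjusted p of 0.0262 and a limma adjusted p of 0.998, and it was -0.20 within spike-in group 2, -0.19 within group 3 and -0.027 with no normalization. Other tested probe sets of Rps18 differed by 0.0071, at a similar level of 11.32, and by -0.058. Rps26, which touches the message at the exit channel, differed by -0.092 ± 0.043, and low replicate 5 was its highest array at 11.8, without which the difference was -0.058. Rps9, a protein known for its part in accurate decoding, differed by -0.090 ± 0.043. Both had a limma adjusted p of 0.998 and changed sign with no normalization, to 0.0054 and 0.021, where the median of all probe sets was 0.11. A dimmer Rps9 probe set differed the other way, by 0.050. Over all classes together, the limma F test gave no member under an unadjusted p of 0.05, against 8.62% of all probe sets, and no adjusted one, against 0.00888%. The adjusted slope passed for 0.00444% of all probe sets and for no member.

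**Figure D4:**
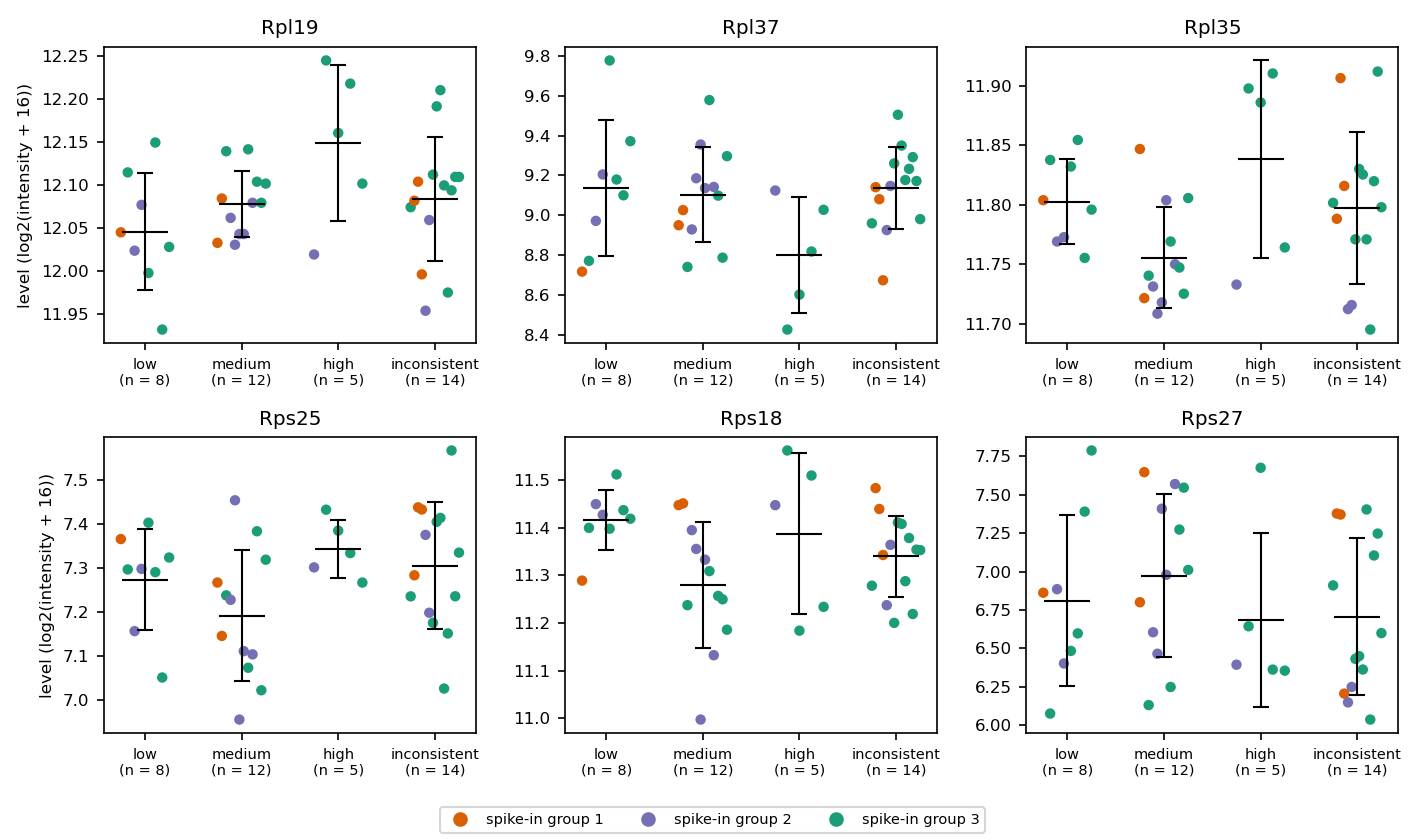
Levels (log2(intensity + 16), y axis) of Rpl19, Rpl37, Rpl35, Rps25, Rps18 and Rps27 are drawn for each array by learning class, coloured by spike-in group, with the class mean and 1 SD in black; each panel has its own axis. Every panel shows overlap between classes, and in Rps27 the low arrays alone run from 6.08 to 7.79, wider than any distance between class means.

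Without medium replicate 9, the array with striatum markers, the medians for high minus medium were 0.043 and 0.039, and no member passed. Without low replicate 5 the medians for high minus low were 0.040 and 0.015. Choroid plexus markers, which mark tissue of the ventricles, averaged 8.16 or more on 7 of the 25 ranked arrays, 3 low and 4 medium, and at most 6.97 on the others. Of 10 tested choroid plexus markers, 0 were higher in high than in low or medium mice, with means per array from 5.90 to 6.39 in high, 5.72 to 9.43 in low and 5.91 to 9.36 in medium mice, and no marker was listed at 0. Without those arrays the medians for high minus medium were 0.022 and 0.021, under those with them, and no member passed. For high minus low they were 0.039 and 0.010, above the 0.030 and 0.0085 with them. For medium minus low they were 0.019 and -0.022, against 0.0034 and -0.028 with them. The part of choroid plexus tissue was not tested.

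The members varied together from mouse to mouse, to a small degree. After removing class means, the median correlation over all pairs of tested members over 39 arrays was 0.138, and 72.1% of pairs were above 0, against 0.0034 and 50.6% for pairs of all genes. Among the 32 bright members it was 0.163, against 0.011 for all genes at that level. The median was 0.172 within the large subunit, 0.105 within the small and 0.137 between them. Within spike-in group 3 these were 0.173, 0.147 and 0.187, and within group 2, of 10 arrays, 0.049, -0.0062 and 0.026. Pairs share their arrays and the normalization, and with arrays scaled to a common median the median correlation was 0.605. Without medium replicate 9 and low replicate 5 the medians were 0.219 and 0.138 within the subunits and 0.15 between them.

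The highest pair was Rpl22, an RNA-binding large subunit protein, with Rps19, at 0.732, followed by Rpl10a with Rps19 at 0.731 and Rpl10a with Rpl22 at 0.706. Over the 25 ranked arrays, Rpl27a correlated at 0.728 with the mean of the other members, Rpl10a at 0.658, Rpl27 at 0.617, Rps14 at 0.613 and Rpl22 at 0.604. At the other end were Rps4x, a protein encoded on the X chromosome, at -0.225, Rpl8 at -0.167, Rps27 at -0.167, Rpl13a, known also as part of a complex that silences inflammatory messages, at -0.096 and Rps28 at 0.010. The most negative pair was Rps29 with Rps3, at -0.569. These members differ in level and probe design as well as in gene, and the part of either was not tested.

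**Figure D5:**
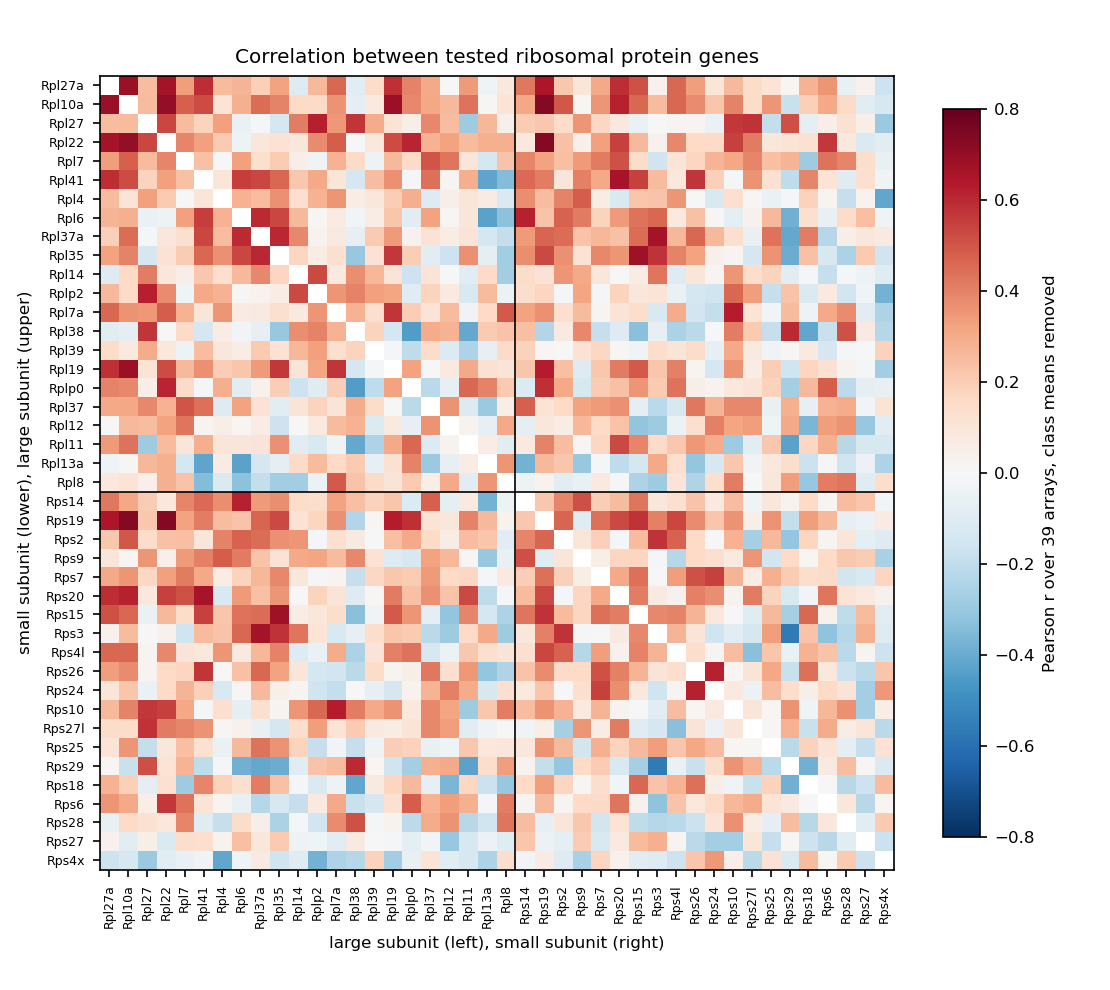
Each cell is the Pearson correlation of a pair of tested members over 39 arrays after class means were removed, from -0.8 (blue) to 0.8 (red), with the 22 large subunit members first and the 20 small ones after the black lines, each sorted by correlation with the other members. The darkest red cells are among Rpl10a, Rpl22, Rpl27a and Rps19, up to 0.732, and the darkest blue one is Rps29 with Rps3 at -0.569.

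Over 39 arrays the large and small subunit means correlated at 0.627 (Spearman's rho 0.650), and at 0.659 without the 2 farthest arrays. Within spike-in groups 1 to 3, of 6, 10 and 23 arrays, the correlation was 0.736, 0.422 and 0.649. The control probe set for the ribosomal RNA of the small subunit correlated with the large subunit mean at 0.360 (rho 0.476), and at 0.746 without its 2 farthest arrays, medium replicate 9 at 11.7 and low replicate 5 at 5.52. Within the spike-in groups this was 0.852, 0.060 and 0.453. With the small subunit mean it was 0.103, and 0.454 without those arrays. The log2 ratios of 3' to 5' control probe sets for Gapdh and actin, a sign of RNA integrity, correlated with the large subunit mean at -0.080 and -0.227 and with the small subunit mean at -0.284 and -0.087. The part of RNA quality and carried-over ribosomal RNA in the subunit means was not tested.

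Outside the members, the genes whose levels followed the member mean most closely over the 25 ranked arrays were Banf1 at r = 0.907, Ssu72 at 0.815, Mrpl27 at 0.804, Dynlrb1 at 0.799 and Trappc2l at 0.796, followed by Dnajc15, Exosc1, Mrpl55, Psmb3 and Pet100 at 0.794 to 0.755. Over 39 arrays the mean of 70 mitochondrial ribosomal proteins, which belong to the separate ribosomes of mitochondria, followed the member mean at 0.843, and at 0.811, 0.763 and 0.816 within spike-in groups 1 to 3. Microglia markers followed it at 0.691 and, within the groups, at 0.963, 0.232 and 0.618. The list of mTOR pathway and TOP regulator genes ran against it at -0.523 and, within the groups, at -0.419, -0.296 and -0.381. Arrays and normalization are common to all of these means.

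The mean microglia level was 8.97 ± 0.08 (SD, n = 8) in low, 8.95 ± 0.07 in medium and 9.00 ± 0.06 in high mice, and 4 of 6 markers were above 0 for high minus low, 6 with arrays scaled to a common median and 3 with no normalization, none past the limma threshold. The part of microglia in the member levels was not tested. For high minus low, 0 of 8 neuron markers were above 0, against 52% of all probe sets, with a median of -0.078. With arrays scaled to a common median it was 8 of 8 and 0.032, where the median of all probe sets was 0.070. Relative to all probe sets, the neuron median was -0.083 after quantile normalization, -0.038 with the common median and -0.047 with no normalization. For microglia these were 0.016, 0.047 and 0.037. With scaling to a common median in brackets, the counts above 0 were 1 (4) of 5 for oligodendrocytes, 3 (5) of 6 for astrocytes, 1 (2) of 5 for endothelium, 2 (3) of 3 for dentate granule cells, 1 (3) of 4 for pyramidal cells and 0 (2) of 5 for striatum. The bracketed counts carry the same shift of all probe sets. The 1 tested red blood cell marker was above 0 with both and below 0 with no normalization. None of these passed the threshold.

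The rest of the translation machinery gave no call in any class comparison after quantile normalization. Of the 70 mitochondrial ribosomal proteins, 59 were above 0 for high minus low, with a median of 0.066, and 62 for high minus medium, with 0.072. For high minus medium the 62 became 66 with arrays scaled to a common median, where 10 passed the threshold, against 4.17% of all probe sets, and 11 with no normalization. Under the same scaling and for the same comparison 4 of 34 initiation factors, 3 of 9 ribosomal-like genes and 6 of 56 ribosome biogenesis genes passed, and none of the elongation, RNA polymerase I and mTOR lists. Relative to all probe sets, the median of the mitochondrial list for high minus medium was 0.10 with that scaling and 0.083 with no normalization. Mrpl19, at 0.21 ± 0.057 (SE), and Mrps31, at 0.20 ± 0.067, led the list for high minus low, with limma adjusted p of 0.471 and 0.519.

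Of 9 tested ribosomal-like genes outside the rule, 8 were above 0 for high minus low, with a median of 0.066, led by Fau, which encodes a ubiquitin-like protein fused to a small subunit protein, at 0.093 ± 0.052 (SE). For high minus medium 7 were above 0, 9 with arrays scaled to a common median and 4 with no normalization. Rpl22l1, the paralog of Rpl22, differed by 0.18 ± 0.058 between high and medium mice and by -0.13 ± 0.050 between medium and low mice, with limma adjusted p of 0.189 and 0.998. Rpl22 itself differed by 0.051 and 0.021.

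Of 34 initiation factors, 25 were above 0 for high minus low, with a median of 0.039, led by Eif2s2, a subunit of the factor that brings the initiator tRNA, at 0.14 ± 0.056 (SE). With arrays scaled to a common median 34 were above 0, and with no normalization 19. For high minus medium Eif4e, which binds the cap, differed by 0.25 ± 0.078, with a limma adjusted p of 0.189. Of 12 elongation genes 4 were above 0 for high minus low, with a median of -0.026. With arrays scaled to a common median it was 0.071, with 12 above 0, where the median of all probe sets was 0.070.

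Of 56 ribosome biogenesis genes 40 were above 0 for high minus low, with a median of 0.033, led by Imp4 at 0.20 ± 0.068 (SE), and 52 were with arrays scaled to a common median and 18 with no normalization. Utp14a, of the small subunit processome, differed by 0.24 ± 0.059 between high and medium mice, with a limma adjusted p of 0.127. For 15 RNA polymerase I genes the median for high minus low was -0.00075, with 7 above 0; it was 0.036, with 11, under scaling to a common median and -0.095, with 3, under no normalization. For 23 genes of the mTOR pathway and of TOP regulation it was 0.0004, with 12 above 0. Under the same 2 scalings it was 0.086, with 18, and -0.049, with 8, where all probe sets had medians of 0.070 and -0.061. Akt2, at -0.21 ± 0.086, and Rheb, the activator of mTOR, at 0.21 ± 0.090, led that list in opposite directions, with limma adjusted p of 0.553 and 0.569.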

How the data were processed

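Hippocampal RNA of 41 mice was measured on 1 Affymetrix array each. The table deposited by the authors holds intensities on a linear scale, as the size of its values shows. Partek and RMA are named, without versions, per the submitters' processing notes. Which step made these values was not given in the sources used here. No column of per-sample values was left without a sample (0). For all 41 arrays the intensities were brought to a common distribution (quantile normalization), then to log2(intensity + 16), a scale that understates changes of dim genes. Of 45037 probe sets without controls, the 22519 at or above the median of mean intensity were tested.

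One limma model (version 3.58.1, R 4.3.3) took in the 25 ranked arrays, with p-values adjusted by Benjamini-Hochberg over all tested probe sets at 0.05. Lists are given by counts and medians, without tests. Members, lists and the rule for named genes were chosen with earlier results of these data known. The rule names members called, the 5 of each subunit with the smallest p per comparison, a fixed list, the 5 highest and lowest SDs, the 5 least correlated, untested members, the 10 nearest genes and up to 2 leaders per list and comparison, of which only some are printed. A few other members were added after their values were seen. The fit was tested on simulated data. Gene symbols came from the platform annotation (1 symbol for 34945 probe sets, several for 932, none for 9160). Promoters were from RefSeq; Rps20, Rps14, Rpl7, Rps29, Rps4l and Rpl8 were not matched. Of the tested members' probe sets, 33.3% had the suffix _x_at, whose probes can match other transcripts, against 6.36% of all, so near-identical copies may share signal. Arrays of a class are separate mice.

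Same-numbered arrays of different classes did not deviate together: 18 correlations ran from -0.188 to 0.180, so the main model did not pair arrays by number. Within a class the numbers partly followed the spike-in groups. Inconsistent replicates 2 to 4 were in group 1 and replicates 5 and 6 in group 2. Alternatives changed the filter, the normalization, the offset, the variance model, the weighting of arrays, the choice of probe sets and of arrays, the class of the mouse with contradictory descriptions, and added spike-in groups, 3' to 5' ratios or replicate numbers to the model. Counting several-symbol probe sets too and keeping only bright members were added after the data were seen.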

Additional observations from a re-analysis of the deposited data

Results flagged for a closer look

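Single arrays far from their class were sought for 39 members and both subunit means in the low and high classes, 82 tests in all, and 7 stood out by Dixon's ratio, the gap to the nearest array over the class range. Chance alone gives about 1 in 20 such tests when they are independent and not chosen by their values. These members share arrays and were partly chosen by their values, so the 7 cannot be set against that rate. Low replicate 5 was the array in 4 of them. It was the lowest low array for Rpl13a, at 12.4 against 12.6 to 12.7 in the others (ratio 0.547), and for Rplp0, at 11.2 against 11.4 to 11.5 (0.563). It was the highest for Rps24, at 12.5 against 12.3 to 12.4 (0.672), and for Rps26, at 11.8 against 11.5 to 11.6 (0.574). The same array had the lowest ribosomal RNA control level, 5.52. Low replicate 6 was the highest for Rps19, at 11.6 against 11.4 to 11.5 (0.543). In the high class, replicate 2 was the highest for Rpl41, the smallest ribosomal protein, at 12.45 against 12.27 to 12.32 (0.741), and replicate 3 for Rps27, at 7.67 against 6.36 to 6.64 (0.781). Neither subunit mean stood out in either class.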

How the results depend on the processing

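No member was called in any of the 5 tests under any alternative that was run, including leaving out each of 25 arrays, except that 2 were called for high minus medium with arrays centred on their medians, where 940 probe sets passed against 7. With that centring the medians of the large and small subunit were 0.1526 and 0.1213 for high minus low and 0.1831 and 0.1814 for high minus medium. With no normalization they were -0.06902 and -0.07951 for high minus medium and 0.09795 and 0.06814 for medium minus low. Rpl35 (-0.01476) and Rps25 (-0.04325) for high minus medium and Rps26 (0.005445) and Rps9 (0.02065) for medium minus low changed sign. In that setting the median of all probe sets was -0.1691 for high minus medium and 0.1066 for medium minus low. Rpl35 and Rps25 stood above that median and Rps26 and Rps9 below it. The SD over arrays of the large subunit mean was 0.0475, and 0.1085 with centring and 0.2485 with no normalization; for the small subunit it was 0.0440, 0.1179 and 0.2368. The median pair correlation became 0.605 and 0.913. The cause was not tested. Quantile normalization gave Rps29 the same value on 6 arrays. With the replicate block no member was called and the medians for high minus medium were 0.06243 and 0.05522. Within the largest spike-in group alone they were 0.0155 and 0.01367. For high minus medium the settings other than scaling gave 0.0155 to 0.06243 in the large and 0.006249 to 0.05522 in the small subunit. Leaving out single arrays moved the medians for high minus low between 0.01865 and 0.04451 in the large and 0.002138 and 0.02025 in the small subunit, and the settings other than scaling gave 0.02247 to 0.04779 and -0.002792 to 0.02058. Calls over all probe sets for high minus medium ranged widely: 357 with array weights, 23 with all 41 arrays, 15 with a variance trend and 0 without high replicate 2, 3 or 4, without medium replicate 7, with no normalization, with the replicate block, within the largest spike-in group and without the choroid plexus-bright arrays. The number of arrays and the dim signal of 10 tested members limit what could be seen.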

Other observations

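Other probe sets of the same genes gave a view that the choice of the brightest left out. For 19 members, 42 further probe sets were tested, and their correlation with the brightest one had a median of 0.303, from -0.300 to 0.780. None passed in any comparison, and the lowest limma adjusted p was 0.194, for a second Rpl13a probe set that differed by 0.16 between high and medium mice while the brightest differed by 0.0029. This probe set and those that follow were chosen after their values were seen. A dim Rpl41 probe set differed by -0.28 between high and medium mice, against 0.023 for the brightest (limma adjusted p of 0.203), and a dimmer Rps10 probe set by -0.52 against 0.029. The 110 probe sets with several symbols had a median level of 11.7, and 67 of them stood at 11 or more.

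The 2 mice with incomplete behaviour had large subunit means of 10.86 and 10.97 and, in the same order, small subunit means of 11.01 and 11.09, inside the range of the other mice. The second inconsistent mouse is also described as consistently medium, and moving it to the medium class called no member.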
